A study of Mus musculus with 4 samples.

Results

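The 9 genes described here encode core parts of the Notch signalling pathway: the receptors Notch1 and Notch2, the receptor-cleaving protease Adam10, the receptor inhibitor Numb, the DNA-binding factor Rbpj, its coactivators Maml1 and Maml2, and the target genes Hes1 and Dtx1. They were chosen by gene symbol from 23238 symbols in the count tables, and all 9 symbols were found. The choice was made with differences between the genotypes already known, so the genotype differences of these genes are given as a description, and the test results printed beside them, which come from a fit over all genes, are not independent support for anything. The study measured RNA in CD4+ T cells of C57BL/6j mice, in 2 libraries from wild-type mice (WT) and 2 from mice lacking Pdk4 (PDK4 KO, here knockout), a mitochondrial kinase that restrains pyruvate oxidation. In both groups alike, naive cells from spleen and lymph nodes were separated with magnetic beads and stimulated in culture (CD3, CD28, IL-2) over 48 hours. The labels do not give the age of the mice, the part of Pdk4 that was deleted, the cells in which it was deleted, or whether the replicates came from separate or pooled mice, so p-values speak only to the spread among these 4 libraries, and that spread may be technical.

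Notch receptors are single-pass proteins that are activated by ligands on neighbouring cells. Ligand binding exposes the receptor to ADAM10, gamma-secretase then releases its intracellular domain, and in the nucleus this domain joins RBPJ and a Mastermind-like protein to switch on target genes. Without the Notch domain, RBPJ binds corepressors at the same sites. In T cells the pathway is known for commitment to the T lineage in the thymus and for tuning activation and helper differentiation of mature CD4+ cells, where Gata3 is among its known direct targets.

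The libraries held between 8837810 and 9739624 counts, with 13527 to 13763 genes detected in each, and the 9 genes made up 0.0464% to 0.0608% of all counts. Pdk4 had 0 to 2 counts per library in both genotypes, at or under the floor of 3 counts, which checks nothing about the labels. All 10 CD4 T cell markers were tested, among them Cd3d, Lck and Thy1, and their summed level was 2579 to 2738 CPM (counts scaled to the size of the library, here after TMM normalisation) in wild type and 2617 to 2660 CPM in knockout. Only 1 of these 10 was called in edgeR's quasi-likelihood test, namely Cd5, which rose by 0.29 on the log2 scale and was named after its values were seen. At an unadjusted p under 0.05 in that test, 1 of the 10 was higher in knockout and 2 were lower, among them Cd3d (-0.16). Over all 11464 tested genes, 779 were higher and 766 lower at that unadjusted p. Of the lists of markers of other cells, those of B cells and of CD8 T and NK cells had lower sums in both knockout libraries than in either wild-type library, as did that of myeloid cells. The 17 B cell markers used, led by Mzb1, H2-Aa and H2-Ab1, summed to 177 and 197 CPM in wild type and to 74.99 and 68.8 CPM in knockout, and 11 of the 14 tested fell, while Pax5 had 0 counts in all libraries. The 14 CD8 T and NK cell markers, led by Gzma, Nkg7 and Klrc1, summed to 440 and 472 CPM in wild type and 278 and 265 CPM in knockout, with 2 of 11 tested genes falling and Gzmk at 0 throughout. Gzma carried most of this difference, at 219 ± 0.303 CPM in wild type and 63.7 ± 17.6 CPM in knockout (SD, n = 2 each). Klrc1 fell from a mean of 30.0 to 16.3 CPM, while Nkg7 overlapped at a mean of 122 CPM in both genotypes. At an unadjusted p under 0.05, 5 of the 11 were lower and 0 higher. The 14 myeloid and dendritic markers, led by Fcer1g, Tyrobp and Cd68, summed to 32.8 to 38.4 CPM in wild type and 14.5 and 29.7 CPM in knockout, where 1 of 6 tested genes fell and Clec9a and Siglech were at 0. The 1 that fell was Fcer1g, at 20.4 ± 1.21 CPM in wild type and 9.41 ± 1.75 CPM in knockout (SD, n = 2 each), while Cd68 overlapped. The 3 innate-like T cell genes found of 7 listed (Zbtb16, Sox13 and Il23r) summed to 1.36 and 3.17 CPM in wild type. In knockout their sum was also lower, at 0.715 and 0.109 CPM, and 0 of them had enough counts to be tested. The 8 stromal and endothelial markers, mostly Pecam1, summed to 22.4 to 27.6 CPM, overlapping between the genotypes, with 0 of 2 tested genes called, Col1a1 and Pdpn under 2 CPM and Ccl19 and Ccl21a at 0. At an unadjusted p under 0.05, 1 of these was higher in knockout, Col1a2, with 1 and 3 wild-type counts against 11 and 18 knockout counts. In bulk RNA, fewer cells of a type and less RNA per cell cannot be told apart, and the cells that a marker transcript came from are not known. The part of other cells in the results below was not tested.

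Of the 9 genes, Rbpj stood out: it was the most abundant, and it had 42.6% less mRNA in the knockout libraries on average. It was the 1 gene called among the 8 that passed the filter on low counts, with 0 rises. Called means an adjusted p under 0.05 in edgeR's test over 11464 genes, in which 2.66% of genes were called in either direction and 1.21% fell. At an unadjusted p under 0.05, 1 of the 8 was higher (Notch2) and 1 lower (Rbpj), beside 779 and 766 of all 11464 tested genes. DESeq2 and limma-voom gave 0 rises as well. Libraries of the genotypes did not overlap for 3 of the 8 tested genes, Rbpj, Notch2 and Maml1, against 43.4% of all tested genes. The median log2 fold change, knockout minus wild type, was -0.05 over the 8 genes and 0.000412 over all tested genes. Hes1 did not pass the filter and is described by its counts.

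**Figure D1:**
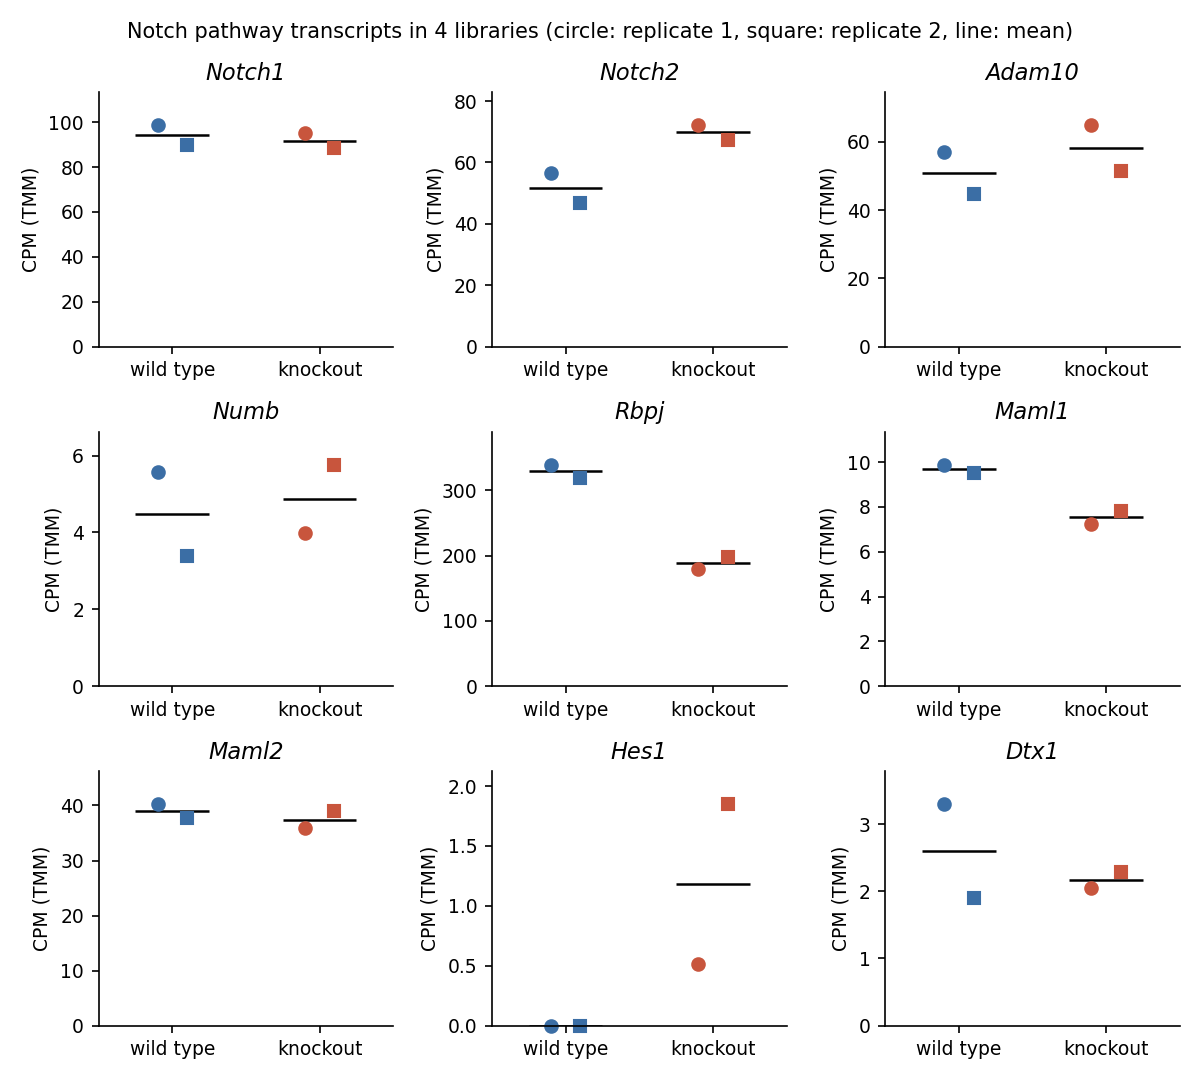
Levels of the 9 Notch pathway transcripts in each library, in CPM after TMM scaling, on linear axes that start at 0; points are libraries (circle replicate 1, square replicate 2) and lines are means of n = 2. Rbpj sits at 319 CPM or more in wild type and at 198 CPM or less in knockout, Notch2 is higher in both knockout libraries, and Hes1 has a value above 0 in the knockout libraries only.

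Rbpj (chromosome 5, 53466152 to 53657362, plus strand, GRCm38) encodes the DNA-binding factor on which all Notch receptors converge. The wild-type libraries held 2988 and 3023 counts of it, and the knockout libraries 1759 and 1823, replicate 1 first here and throughout. On the normalised scale wild type stood at 340 and 319 CPM, knockout at 180 and 198 CPM. Both knockout libraries were far below both wild-type libraries, with a gap of at least 121 CPM between the genotypes, against 20.3 and 18.5 CPM between the libraries of wild type and knockout. The means were 329 ± 14.4 CPM in wild type and 189 ± 13.1 CPM in knockout (SD, n = 2 each). The log2 fold change was -0.80 (SE 0.0833, 95% interval -0.97 to -0.63, adjusted p = 6.56e-08 in edgeR's quasi-likelihood test), which placed Rbpj at rank 10 by p among the 11464 tested genes. Its log2 fold change lay between -0.87 and -0.73 whichever library was left out. In the same libraries 11 of 14 tested B cell markers fell, and their part in the lower Rbpj level was not tested. The annotation also holds 2 processed pseudogenes, Rbpj-ps1 on chromosome 4 and Rbpj-ps3 on chromosome 6, which were not analysed here, and how reads shared with them were counted is not given in the sources used here, so the level of Rbpj is uncertain to that extent. Its paralog Rbpjl had 1 count in 1 knockout library and 0 in the others.

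Because Rbpj was the gene that differed, the sequence before its start is shown, with matches to the RBPJ core TGGGAA in capitals (searched on both strands, where the other strand reads TTCCCA). RefSeq (GRCm38.p6) gave start-site windows for 8 of the 9 genes, all but Hes1, and 12 windows in all, of which only the 250 bases before each start were searched. The stretch from the first base of the first Rbpj window to the base before the first exon annotated in that window (transcript Rbpj-201) is chr5:53590096-53590213, plus strand, and lies inside the span that GENCODE gives the gene.
Rbpj upstream: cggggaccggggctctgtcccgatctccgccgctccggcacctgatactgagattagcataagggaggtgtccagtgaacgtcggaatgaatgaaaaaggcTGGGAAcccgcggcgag
This window held 2 matches, 1 in the stretch above, beginning 149 bases before the start, and 1 on the opposite strand, beginning 65 bases before the start and inside that exon of Rbpj-201. The only other member with a match was Maml2, in its second window, on the opposite strand and beginning 145 bases before that start. The second Rbpj match (chr5:53590269-53590298) and the Maml2 match (chr9:13662303-13662332) are shown with 12 bases on each side.
Rbpj second match: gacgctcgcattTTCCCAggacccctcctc
Maml2 match: acactcttgcacTTCCCAgggctcgggcag
Windows with TGGGAA were 3 of the 12, 2 of them overlapping Rbpj windows, while 21.6% of all 32851 RefSeq windows of this length held it. The longer form GTGGGAA, which contains the core, was in 0 of the 12 and in 5.42% of all windows. A match describes letters only and is not evidence of binding.

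The coactivators Maml1 and Maml2 encode Mastermind-like proteins, which bind the surface formed by RBPJ and the Notch domain and recruit histone acetyltransferases. Maml2 (chromosome 9, 13297957 to 13709388, plus strand) had 354 and 357 wild-type counts against 351 and 358 knockout counts, or 40.2 and 37.7 CPM against 35.9 and 38.9 CPM. The libraries of the genotypes overlapped. Its log2 fold change was -0.06 (SE 0.158, 95% interval -0.38 to 0.26). Phxr4, annotated on the same strand inside Maml2, had 235 and 289 wild-type counts against 282 and 301 knockout counts, and how reads shared by such genes were assigned is not stated, so the level of Maml2 is uncertain. Maml1 (chromosome 11, 50255634 to 50292311, minus strand) was lower in abundance, with 87 and 90 wild-type counts against 71 and 72 knockout counts. These corresponded to 9.89 and 9.50 CPM in wild type and 7.25 and 7.83 CPM in knockout, with no overlap between the genotypes. Within a genotype the Maml1 libraries differed by less than their counting error: the exact Poisson 95% intervals ran from 7.64 to 12.2 CPM over the wild-type libraries and from 5.67 to 9.86 CPM over the knockout libraries, so the ranges of the genotypes overlapped. The fit gave a log2 fold change of -0.36 (SE 0.321, 95% interval -1.01 to 0.29), and Maml1 was not called. An antisense transcript, Gm26542, overlaps Maml1 and reaches to within 1000 bases of its 3' end, and as the use of strand in counting is not given, the source of those reads is uncertain. Maml2 was 4.07 and 3.97 times as abundant as Maml1 in wild type and 4.94 and 4.97 times in knockout. With Maml2 at -0.06, this ratio mostly restates the Maml1 difference, which was not called.

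Of the receptors, Notch1 was the more abundant, and its levels in the genotypes overlapped. Notch1 (chromosome 2, 26457903 to 26516663, minus strand), the receptor needed for T lineage commitment, had 868 and 849 wild-type counts against 930 and 813 knockout counts. The levels were 98.6 and 89.6 CPM in wild type and 95.02 and 88.4 CPM in knockout, so the genotypes overlapped. The log2 fold change was -0.04 (SE 0.112), with a 95% interval from -0.27 to 0.19. Transcripts of the opposite strand, 0610009E02Rik and Gm13568, overlap Notch1 and reach to within 1000 bases of its 3' end. As the use of strand in counting is not given, it is uncertain whether their reads were counted with those of Notch1. Notch2 (chromosome 3, 98013527 to 98150361, plus strand), the receptor known for its need in marginal zone B cells and also present in T cells, had 497 and 443 wild-type counts against 706 and 620 knockout counts. It stood at 56.5 and 46.8 CPM in wild type and at 72.1 and 67.4 CPM in knockout. Both knockout libraries were above both wild-type libraries. The means were 51.6 ± 6.86 and 69.8 ± 3.34 CPM (SD, n = 2 each), with a log2 fold change of 0.44 (SE 0.134, 95% interval 0.16 to 0.71). Notch2 did not pass the test over all genes (adjusted p = 0.0799, edgeR's quasi-likelihood test), and of the 4 fits with a library left out it passed in 1, for wild-type replicate 1 (0.58, adjusted p = 0.0393). The other 3 fits gave 0.30 (wild-type replicate 2, adjusted p = 0.533), 0.39 (knockout replicate 1, 0.381) and 0.48 (knockout replicate 2, 0.152). In the same libraries 11 of 14 tested B cell markers fell, and their part in the Notch2 level was not tested.

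Adam10 and Numb act on the receptors at the membrane. Adam10 (chromosome 9, 70678997 to 70780229, plus strand), the protease that makes the ligand-dependent cut, had 503 and 424 wild-type counts against 635 and 474 knockout counts. Its levels were 57.2 and 44.8 CPM in wild type and 64.9 and 51.5 CPM in knockout, an overlap in which replicate 1 was the higher library of each genotype. The log2 fold change was 0.19 (SE 0.147, 95% interval -0.11 to 0.49). Leaving out wild-type replicate 2 gave 0.03, and leaving out knockout replicate 1 gave 0.02. Numb (chromosome 12, 83794034 to 83921934, minus strand), an endocytic adaptor that antagonises Notch, was scarce. It had 49 and 32 wild-type counts against 39 and 53 knockout counts, or 5.57 and 3.38 CPM against 3.98 and 5.76 CPM, and the genotypes overlapped. Its log2 fold change of 0.12 (SE 0.468, 95% interval -0.83 to 1.08) leaves changes of up to about 1 log2 unit in either direction undetectable at this depth.

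Hes1 and Dtx1 are classic targets of Notch. Hes1 (chromosome 16, 30064384 to 30067796, plus strand), a transcriptional repressor, was at 0 counts in both wild-type libraries, while the knockout libraries held 5 and 17. These knockout counts were 0.511 CPM (exact Poisson 95% interval 0.166 to 1.19) and 1.85 CPM (1.08 to 2.96), where intervals cover counting error only. The intervals of the wild-type libraries, 0 to 0.419 and 0 to 0.389 CPM, overlapped that of knockout replicate 1 and not that of replicate 2. The knockout libraries were the only ones with reads, and the one with most reads, replicate 2, held 17 of the 22. A floor of 3 counts over both wild-type libraries together corresponds to 0.164 CPM, and the pooled knockout level of 1.16 CPM was 7.06 times that floor. The wild-type intervals reach above this floor, so 7.06 is not a lower limit on the difference between the genotypes. Hes1 was too low for the filter and so was not part of the fit. When no filter was used it was not called (adjusted p = 0.213, edgeR's quasi-likelihood test), nor in the 3 fits with a library left out that let it in (adjusted p = 0.164 to 0.428). Dtx1 (chromosome 5, 120680202 to 120711927, minus strand), a Deltex ubiquitin ligase that both responds to Notch and modulates the receptor, had 29 and 18 wild-type counts against 20 and 21 knockout counts. Its levels of 3.30 and 1.90 CPM and of 2.04 and 2.28 CPM overlapped. The log2 fold change was -0.26 (SE 0.648, 95% interval -1.58 to 1.06), so that a change of 2-fold could not be seen at this depth. Rasal1 lies on the other strand within 1000 bases of the 3' end of Dtx1, and had 42 and 48 counts (wild type) and 44 and 74 (knockout).

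**Figure D2:**
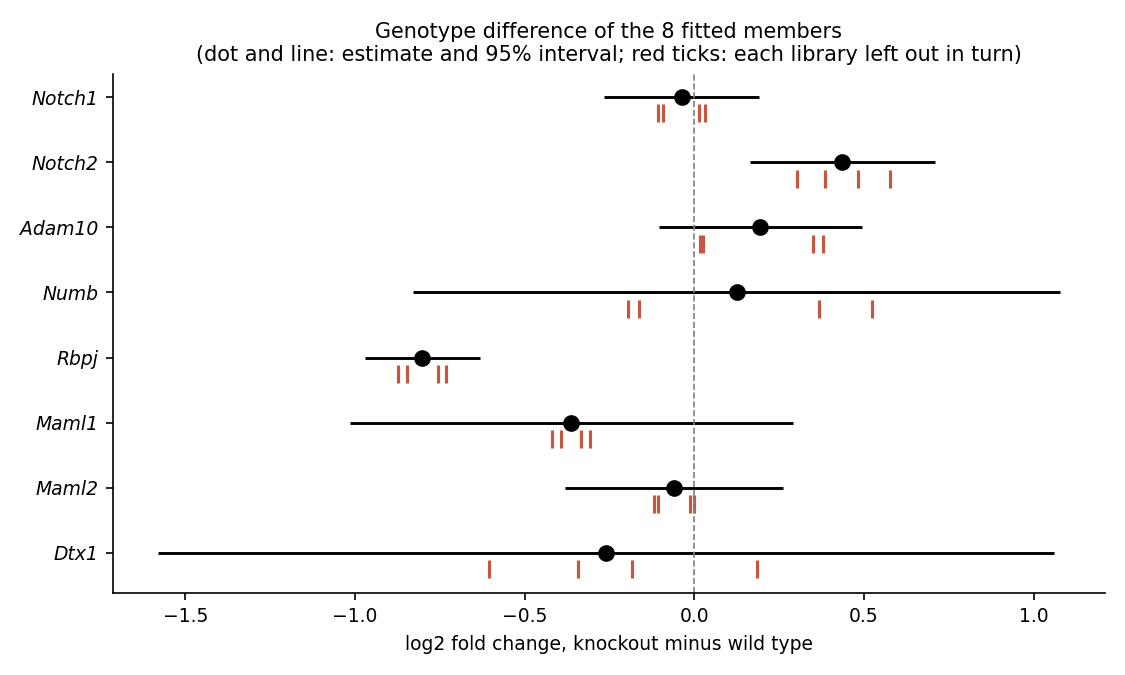
Log2 fold change, knockout minus wild type, of the 8 genes that passed the filter; dots and lines are edgeR estimates with 95% intervals not adjusted for the number of genes, and red ticks are estimates with each of the 4 libraries left out. The Rbpj interval (-0.97 to -0.63) and ticks lie far below 0, the Notch2 interval (0.16 to 0.71) lies above 0, and the scarce transcripts Numb and Dtx1 have the widest intervals.

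Libraries made from 3' ends count transcripts largely without regard to length, so levels of different genes are set side by side in CPM. The uncertainty over read assignment given above for Rbpj, Maml1, Maml2 and Notch1 applies to this order and to the ratios. It applies as well to Notch2, overlapped on its strand by Gm42819 and Gm42820, and to Numb, overlapped on its strand by Gm3791. Rasal1 near Dtx1 and the antisense Gm10441 and Gm40304 over Rbpj add to it. In descending order of the mean over all libraries the transcripts were Rbpj, Notch1, Notch2, Adam10, Maml2, Maml1, Numb, Dtx1 and Hes1. In wild type, Notch2 and Adam10 were the neighbours whose libraries overlapped, and in knockout no neighbours in this order overlapped, although Dtx1 and Hes1 in knockout replicate 2 were only 1.24-fold apart. The excess of Rbpj over its partners was smaller in knockout. With log2 fold changes of -0.04 for Notch1 and -0.06 for Maml2, the ratios to these genes mostly restate the lower Rbpj level. Rbpj was 3.44 and 3.56 times as abundant as Notch1 in wild type and 1.89 and 2.24 times in knockout. Over Notch2 the ratios came to 6.01 and 6.82 for wild type, and 2.49 and 2.94 for knockout. Over Maml2 they came to 8.44 and 8.47 for wild type, and 5.01 and 5.09 for knockout. Rbpj nevertheless was the most abundant of the 9 transcripts in each of the 4 libraries. The ratio of Notch1 to Notch2 went from 1.75 and 1.92 in wild type to 1.32 and 1.31 in knockout. With Notch1 at -0.04, this ratio mostly restates the Notch2 difference, which was not called.

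The rest of the pathway was taken from a list of 66 genes, of which 55 were tested. Only 1 of them fell, Gata3, and 0 rose in edgeR's quasi-likelihood test, where 1.21% of all tested genes fell and 1.45% rose. At an unadjusted p under 0.05, 2 of the 55 were higher and 6 lower, beside 779 and 766 of all 11464 tested genes. DESeq2 and limma-voom each called 2 falls (Gata3 and Il2ra) and 0 rises. Leaving out wild-type replicate 1 gave 3 falls, Furin, Gata3 and Il2ra. The genotypes did not overlap for 20 of the 55, against 43.4% of all tested genes. The median log2 fold change over the 55 was -0.00371, beside 0.000412 over all tested genes.

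Among the 8 tested targets, Gata3, a zinc finger factor that drives Th2 differentiation, had 247 and 235 CPM in wild type and 137 and 148 CPM in knockout. The knockout libraries were both far below wild type (log2 fold change -0.76, SE 0.0888, adjusted p = 7.50e-07 in edgeR's quasi-likelihood test). Il2ra, the high-affinity chain of the IL-2 receptor, was at 1172 and 1225 CPM in wild type and 1062 and 1007 CPM in knockout (-0.21, adjusted p = 0.0557 in edgeR's test), without overlap but not called. Bhlhe40, a transcription factor of activated T cells, was at 223 ± 0.0427 and 236 ± 13.9 CPM (SD, n = 2 each). Of the other Hes and Hey genes listed, which encode relatives of Hes1 and are named here after their values were seen, Hes6 was at 36.4 ± 0.418 CPM in wild type and 27.6 ± 4.08 CPM in knockout (SD, n = 2 each), without overlap but not called (-0.40, adjusted p = 0.288 in edgeR's test). Hey2 and Heyl had 0 counts in all libraries, Hey1 had 1 count in knockout replicate 2, and Hes5 had 3 and 3 wild-type counts against 0 and 10 knockout counts.

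Among genes acting on receptors, 0 of 5 glycosylation genes, 0 of 8 cleavage genes and 0 of 12 turnover genes were called, in edgeR's test and in DESeq2 and limma-voom alike. At an unadjusted p under 0.05 there were 0, 1 and 2 of them respectively. Lfng, a Fringe sugar transferase that alters ligand preference, was at 78.1 ± 17.9 and 69.5 ± 4.397 CPM (SD, n = 2 each). Pofut1, which adds the first fucose, was at 39.1 ± 1.79 and 47.0 ± 0.543 CPM. Furin, which makes the cut during receptor maturation, was at 132 ± 28.7 and 104 ± 10.7 CPM. It was lower in knockout without overlap but not called (-0.35, adjusted p = 0.12 in edgeR's test). Adam17, a relative of Adam10, was at 93.8 ± 4.19 and 94.3 ± 5.25 CPM. Of the turnover genes the most abundant were the kinase Aak1, at 118 ± 5.11 and 118 ± 4.27 CPM, and the ubiquitin ligase Cbl, at 111 ± 9.30 and 116 ± 25.7 CPM.

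The nuclear partners of Rbpj showed 0 calls among 6 coactivators and 10 corepressors in edgeR, DESeq2 and limma-voom, with 1 coactivator and 1 corepressor at an unadjusted p under 0.05. Snw1, also known as SKIP, which binds RBPJ, was at 246 ± 4.64 and 246 ± 5.97 CPM, and the acetyltransferase Crebbp at 128 ± 2.31 and 118 ± 5.04 CPM. Ncor1, the nuclear receptor corepressor, was at 543 ± 30.4 and 563 ± 14.2 CPM, and the histone demethylase Kdm5a at 189 ± 4.27 and 156 ± 5.27 CPM (-0.27, adjusted p = 0.112 in edgeR's test). Ligands and the machinery that marks them for uptake were also uncalled, with 1 of 5 ligands and 4 of 5 ubiquitination genes tested and 0 of these 5 at an unadjusted p under 0.05. Jag2, the ligand with the most reads, was at 1.05 ± 0.442 and 1.43 ± 0.584 CPM. Mib2 and Neurl1b, ubiquitin ligases of that machinery, were at 147 ± 27.2 and 166 ± 5.92 CPM and at 41.2 ± 0.572 and 33.1 ± 1.602 CPM. The third receptor, Notch3, was near 1 CPM in both genotypes (1.14 ± 0.328 and 1.11 ± 0.123), and Notch4 had at most 5 counts in a library.

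**Figure D3:**
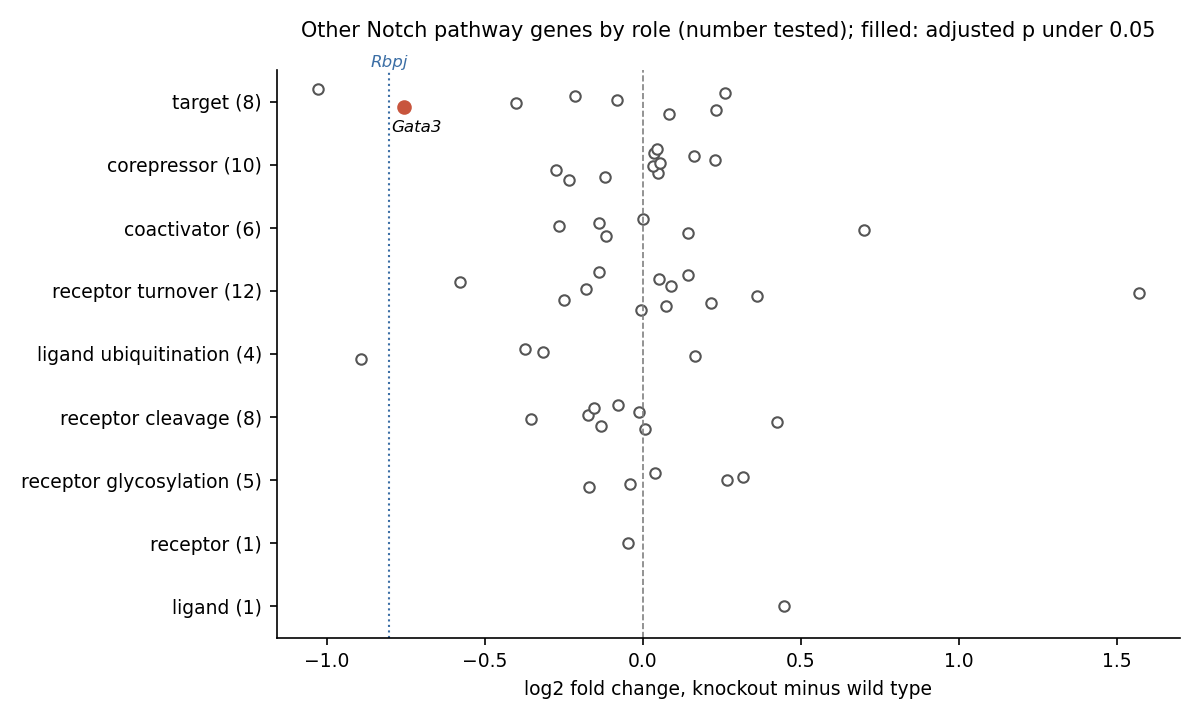
Log2 fold change, knockout minus wild type, of the 55 tested genes of the pathway list, 1 point per gene, in rows by role with the number tested. Gata3 (filled, -0.76) is the only gene called and lies next to the dotted line that marks Rbpj (-0.80), and points far from 0 that are open are scarce transcripts or did not pass the test.

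The genes whose levels ran most like Rbpj were looked for over the 4 libraries among 1159 genes with a mean within 2-fold of its own, by the Euclidean distance between log2 CPM values after subtraction of each gene's mean. Gata3 was the nearest, at a distance of 0.0543, and the next was 5.29 times as far. Ablim1, a cytoskeletal protein (0.287), Cd52, a surface glycoprotein of lymphocytes (0.295), Id2, an inhibitor of E proteins (0.298), and Sesn3, a stress-response sestrin (0.321), followed. All 5 fell in edgeR's quasi-likelihood test, by -0.76, -0.58, -0.55, -0.52 and -0.55 on the log2 scale, as did 32 of the 1159 genes compared. Being near Rbpj in 4 libraries that fall into 2 genotypes mostly means having a genotype difference of like size, and these genes share their libraries and depth with it. Gata3 (chromosome 2, 9857078 to 9890034, minus strand) had no TGGGAA in the 250 bases before its RefSeq start.

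**Figure D4:**
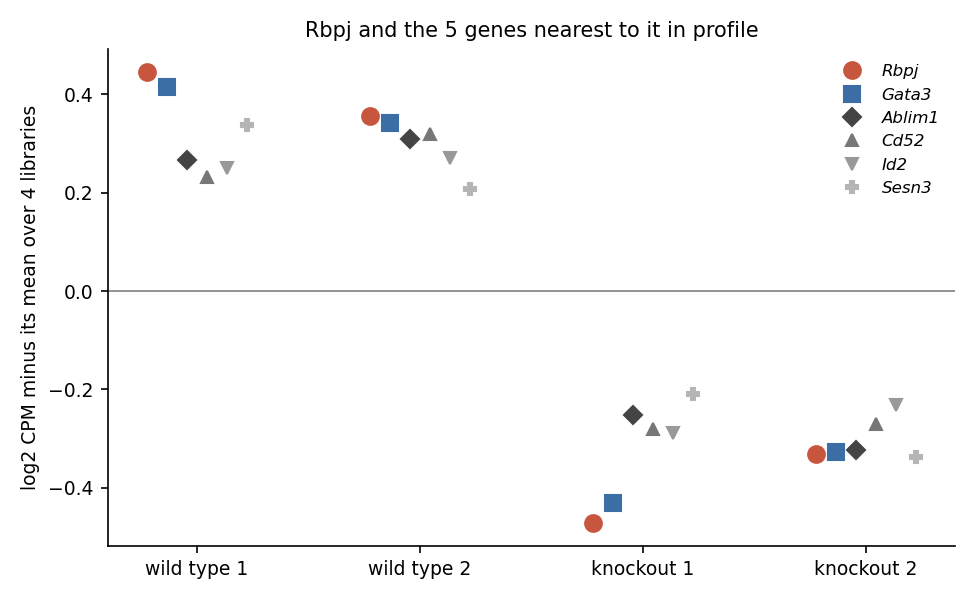
Log2 CPM of Rbpj and its 5 nearest genes in each library, each minus the gene's own mean over the 4 libraries; points are libraries and are set side by side for legibility. Rbpj (0.45, 0.36, -0.47 and -0.33) and Gata3 (0.41, 0.34, -0.43 and -0.33) nearly coincide, and the other genes have smaller differences between the genotypes.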

How the data were processed

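RNA of 4 libraries was counted by the authors, who deposited raw counts per gene symbol, 1 table per library. Per the labels' protocols, 500 ng of RNA went into each library, made with Lexogen QuantSeq chemistry, which reads 3' ends. Bowtie2, edgeR and mm10 were used, per the submitters' processing notes. How reads were counted, with which annotation and whether by strand, is not given in the sources used here. Duplicate rows of 35 symbols were added up. The genotype test was run in edgeR 4.0.16 under R 4.3.3 (TMM, filterByExpr, two-sided quasi-likelihood F test, genotype as the only term), with Benjamini-Hochberg adjustment over the 11464 genes tested. Levels are TMM-normalised CPM. The standard error is the log2 fold change divided by the square root of F. Alternatives used DESeq2 1.42.0, limma-voom (limma 3.58.1), other scalings and filters, a replicate block, Rn45s left out (11.6% to 12.3% of counts), and each library left out. Counts of the libraries of a genotype differed beyond sampling noise (chi-square per degree of freedom 4.89 and 4.99). Positions are from GENCODE M21 and promoters from RefSeq. The members, gene lists and tests were chosen with earlier results of these data known. Named genes are the 9 members, called pathway genes, the 2 most abundant tested genes of each role, the 3 leading markers of each cell type, and the 5 genes nearest to the member with the smallest p. Others are named with that said or beside a small count. A further gene of the B cell marker list is not reported here and was left out of that list's counts and sums.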

Additional observations from a re-analysis of the deposited data

How the results depend on the processing

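Across 13 alternatives, Rbpj fell in all 13, with log2 fold changes from -0.87 to -0.73 and adjusted p from 8.19e-18 to 2.32e-05. Notch2 was higher in knockout in all 13 (0.30 to 0.58) and was called in 1 (adjusted p = 0.0393 to 0.533), so that 2 members were called without wild-type replicate 1 and 1 in every other setting. Adam10 was higher in all 13, and Maml1 and Maml2 were lower in all 13, with 0 calls. Settings that keep every library refit the same data, so their directions are not separate observations. Without knockout replicate 1, the log2 fold change was 0.02 for Adam10 and -0.0017 for Maml2. With a library left out, log2 fold changes ran from -0.107 to 0.0329 for Notch1, from -0.20 to 0.52 for Numb and from -0.61 to 0.18 for Dtx1. Directions reversed for Notch1 without wild-type replicate 1 (0.0329) or knockout replicate 2 (0.0132), for Numb without wild-type replicate 2 (-0.20) or knockout replicate 2 (-0.16), and for Dtx1 without wild-type replicate 1 (0.18). The number of pathway genes called was 2 with upper quartile scaling, DESeq2 and limma-voom (Gata3 and Il2ra), 3 with no filter (with Furin) and 3 with the stricter filter of at least 10 counts in every library (with Dtx3l, which rose), and 1 to 3 with a library left out. Over all genes, 305 were called, and 170 to 293 with a library left out (184 when wild-type replicate 2 was left out, 170 for knockout replicate 1). The cause was not tested. With the replicate number as a block, 2 pathway genes were called (Gata3 and Il2ra), 1 member and 260 genes in all; same-numbered libraries did not deviate together (correlation 0.0111 over genes), so the numbers are not taken as pairs. Depth limits Hes1, Dtx1, Numb and Maml1, whose counts were at most 90 in a library.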

Other observations

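Among the members and pathway genes that were too scarce to be tested but had more than 3 counts in some library, 5 of 7 had their highest level in knockout replicate 2, namely Hes1, Dll1, Dll4, Jag1 and Hes5. They were counted together after their values were seen. Dll1, Jag1 and Hes5 had more than 3 counts in knockout replicate 2 only, and Hes1 and Dll4 in knockout libraries only. Entry to this group thus depended on the library that was high, so the 5 of 7 describes the choice of genes and nothing is drawn from it. The ligand Dll1 had 6 counts in knockout replicate 2 and 0 in the other 3 libraries. Dll4 had 2 and 0 wild-type counts against 6 and 10 knockout counts, and Jag1 had 1 and 1 against 0 and 6. Nrarp, a Notch-induced feedback inhibitor that was tested, had 9 and 24 wild-type counts against 8 and 29 knockout counts. Of all 2288 untested genes over the same floor, 23.9% had their highest level in knockout replicate 2. The summed myeloid and dendritic markers were at 29.7 CPM in that library, above 14.5 CPM in knockout replicate 1 and below 38.4 and 32.8 CPM in wild type, and their part in these values was not tested.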
